A study of Mus musculus with 19 samples.

Results

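Loxl1, Cemip, Htra1, Bcan, Adamts9, Adamts19, Cpxm2, Spon1 and Fbln7 encode secreted proteins that build, cut or coat the extracellular matrix, and were followed through the cortex of E14.5 mouse embryos (E, embryonic day). They are 9 of the 47643 gene symbols in the deposited table and were taken by symbol. They were selected on the measured TPM values of these libraries, because those shift between genotypes, between regions or both, so every difference of the 9 genes given here is a description and carries no test. Expression was measured by RNA sequencing of total RNA in 19 libraries. Mutant embryos were GFAP::Cre; SmoM2, in which Cre recombinase driven by the GFAP promoter switches on SmoM2, a constantly active form of the Hedgehog signal transducer Smoothened. Control embryos are given as wildtype, and the labels say nothing of Cre or SmoM2 alleles in them. Which cells of the mutant cortex had switched on SmoM2 was not measured. The groups were mutant medial cortex (4 libraries), control medial cortex (5), mutant dorsal cortex (4) and control dorsal cortex (6). The tissue labels read dorsal or medial, while the protocol text speaks of medial or lateral pieces.

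The matrix between the cells of the embryonic cortex is a soft mesh of hyaluronan, chondroitin sulphate proteoglycans such as brevican and neurocan, tenascins and glycoproteins, with elastic fibres and collagens mainly around vessels and in the meninges. Secreted enzymes remodel it: ADAMTS and HTRA proteases cut proteoglycans and glycoproteins, hyaluronidases shorten hyaluronan and lysyl oxidases cross-link elastin and collagen. Progenitors and the signalling centres at the edges of the cortex make many of these proteins. One of those centres, the cortical hem at the medial margin, secretes Wnt and BMP proteins.

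Of the 9 genes, 4 lie on mouse chromosome 7, which holds 7.35% of the 13056 tested genes with a single position in GENCODE M21 (GRCm38, the assembly of mm10). Cemip spans 83932857 to 84086502, Spon1 113765998 to 114043370, Htra1 130936111 to 130985660 and Cpxm2 132032687 to 132154739. Htra1 and Cpxm2 lie 1047026 bases apart, and their levels went in opposite directions in the mutants. The others are Fbln7 (chromosome 2, 128862981 to 128897034), Bcan (chromosome 3, 87987531 to 88000230), Adamts9 (chromosome 6, 92772699 to 92943492) and Loxl1 (chromosome 9, 58287738 to 58313186); the position of Adamts19 is given with its values. All 9 are protein-coding genes, and the positions are those of whole genes.

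Promoter windows from RefSeq (GRCm38.p6, 300 bases each, most of them before the gene start) matched 6 of the 9 genes. The windows of 3 chromosome 7 members are shown, Cpxm2 as the gene with the largest rise and Htra1 and Cemip as genes that were lower in mutants, 5′ to 3′ on the gene's strand. Capitals mark the core CCACCCA of the site bound by GLI proteins, the transcription factors of the Hedgehog pathway.
Cpxm2, chr7:132154692-132154991, minus strand: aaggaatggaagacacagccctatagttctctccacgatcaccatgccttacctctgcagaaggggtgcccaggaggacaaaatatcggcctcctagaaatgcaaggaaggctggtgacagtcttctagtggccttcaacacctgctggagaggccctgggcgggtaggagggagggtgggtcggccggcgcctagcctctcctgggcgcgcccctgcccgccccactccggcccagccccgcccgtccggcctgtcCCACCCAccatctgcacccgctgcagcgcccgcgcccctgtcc
Htra1, chr7:130935953-130936252, plus strand: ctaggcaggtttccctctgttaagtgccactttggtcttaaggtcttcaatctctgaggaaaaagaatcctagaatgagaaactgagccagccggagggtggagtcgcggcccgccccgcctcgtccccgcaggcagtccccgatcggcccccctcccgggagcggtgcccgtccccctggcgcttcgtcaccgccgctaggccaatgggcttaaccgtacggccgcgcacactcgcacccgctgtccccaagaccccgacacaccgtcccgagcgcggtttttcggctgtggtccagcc
Cemip, chr7:84086456-84086755, minus strand: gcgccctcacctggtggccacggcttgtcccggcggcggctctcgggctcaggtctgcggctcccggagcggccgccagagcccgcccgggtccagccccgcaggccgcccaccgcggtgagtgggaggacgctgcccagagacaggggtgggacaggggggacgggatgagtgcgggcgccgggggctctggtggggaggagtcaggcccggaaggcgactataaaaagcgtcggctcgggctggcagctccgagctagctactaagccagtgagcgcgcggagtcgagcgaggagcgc
Both strands were searched for the full GLI consensus GACCACCCA and for its core CCACCCA, which is part of it. The full consensus was in 0 of the 6 windows and in 0.253% of all 32851 RefSeq windows. The core was in 1 of the 6, that of Cpxm2 (from base 258 of 300, just past the start), and in 9.3% of all windows. These motifs were chosen after the values were seen, and a match in letters is a description of the window only.

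**Figure D1:**
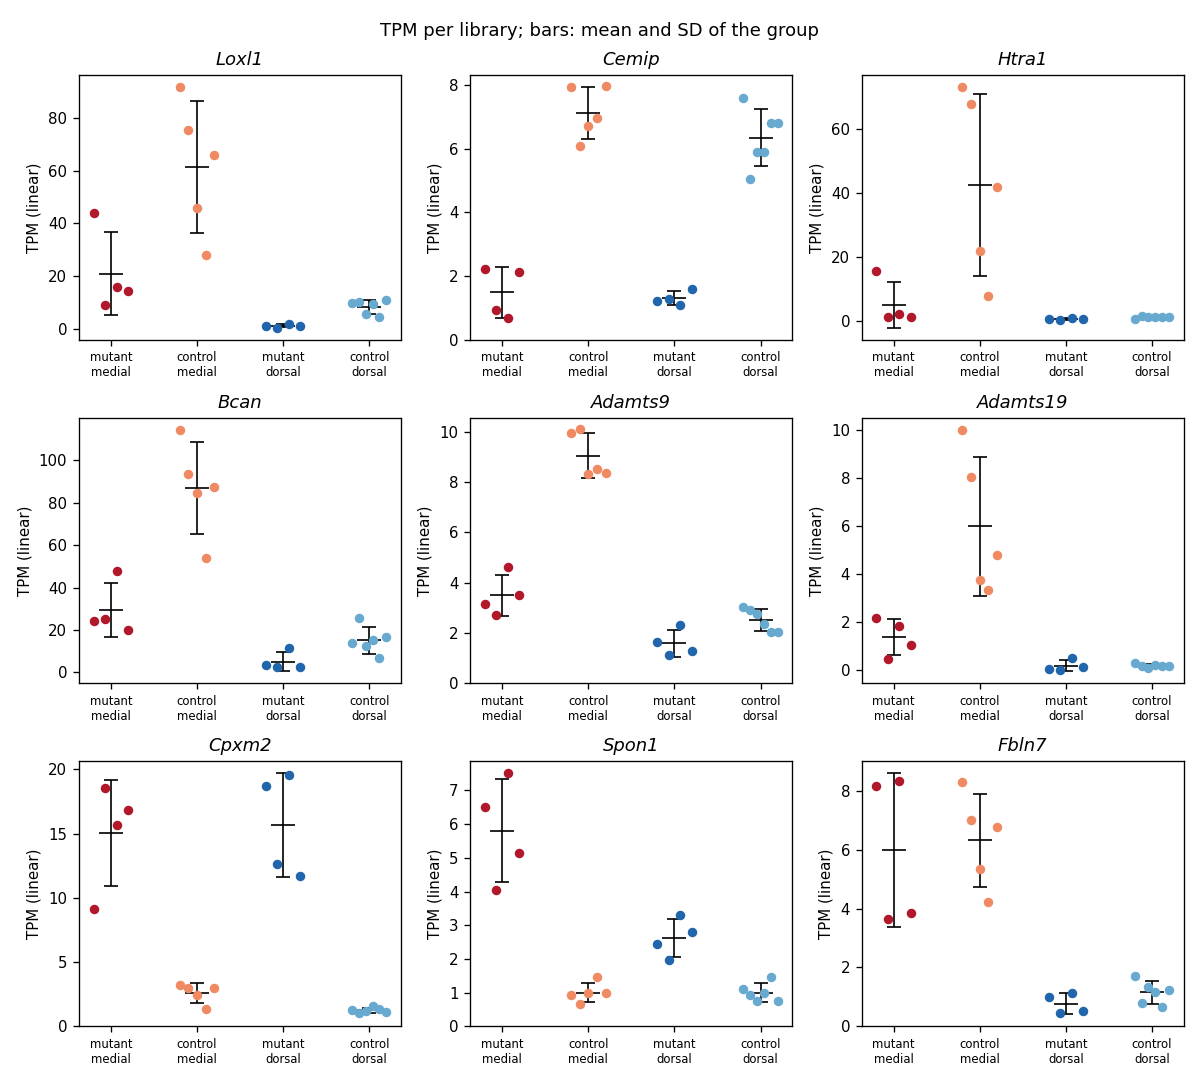
TPM (linear axis) of each of the 9 genes in every library, by group, with the group mean and SD as bars. Cpxm2 and Spon1 are higher in all mutant libraries than in all control libraries of the same region, Cemip is lower, and Loxl1, Htra1, Bcan, Adamts9, Adamts19 and Fbln7 are highest in medial cortex.

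Values are TPM, transcript levels scaled by gene length and to a total of 1000000 per library by the authors, so levels of different genes can be set side by side, and how deeply each library was sequenced cannot be read from them. A library detected 17357 to 18670 genes (TPM above 0). Gli1, the Hedgehog target gene that checks the labels, had 24.3 to 48.1 TPM in mutant medial and 30.7 to 42.8 TPM in mutant dorsal libraries, against 0.200 to 0.558 TPM in control medial and 0.327 to 1.08 TPM in control dorsal libraries. Emx1, a marker of cortical tissue, had 121 to 153 TPM in mutant medial and 101.5 to 128 TPM in mutant dorsal libraries. It was higher in controls, with 165 to 195 TPM in medial and 135 to 150 TPM in dorsal libraries. Of 7 cortical tissue markers, 5 were lower in mutants in each region and 2 did not pass (limma, adjusted p below 0.05). Of all tested genes, 30.2% were lower medially and 27.6% dorsally. By Xist and Ddx3y, control embryos 2, 3 and 4 were female and the other control embryos and all mutant embryos male. Some medial libraries carried markers of neighbouring tissue: the summed level of 8 choroid plexus markers was 2.66 to 170 TPM in mutant medial and 2.38 to 989 TPM in control medial libraries (highest in control 4), and that of 10 meningeal fibroblast markers was 7.63 to 85.6 TPM in mutant medial (highest in mutant 3) and 10.3 to 27.9 TPM in control medial libraries. The sum of 8 neuronal markers was 1729 to 2311 TPM in mutant medial and 2277 to 3448 TPM in mutant dorsal libraries, against 2699 to 3350 TPM in control medial and 3548 to 4242 TPM in control dorsal libraries. Oligodendrocyte precursor markers summed to 29.2 to 35.4 TPM in mutant medial and 16.1 to 26.4 TPM in mutant dorsal libraries, against 3.39 to 11.0 TPM and 5.22 to 7.37 TPM in control medial and control dorsal libraries. Of these 5 markers 4 were tested, and in each region 1 was higher in mutants and 3 did not pass (limma, adjusted p below 0.05). The rise of the sum was thus not shared by the whole list. The part of these cell types in the results was not tested. In bulk tissue, fewer cells of a type and less RNA per cell cannot be told apart.

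Cpxm2 and Spon1 were higher in the mutants of both regions. Values per library are given in the order of the library numbers, 1 to 4 in mutants and 2 to 6 in control medial cortex. Cpxm2 encodes a secreted member of the carboxypeptidase family that is thought to lack enzyme activity. In dorsal cortex it had 18.7, 12.6, 19.6 and 11.7 TPM in mutant libraries, against 1.02, 1.23 and 1.58 TPM (lowest, median and highest of 6) in control libraries. In medial cortex it had 9.11, 18.6, 15.7 and 16.8 TPM in mutant libraries, against 3.22, 2.95, 2.40, 1.31 and 3.01 TPM in control libraries. The groups did not overlap in either region, and mutant medial library 1 was the lowest of the 8 mutant libraries. The mean level was 12.5-fold higher in mutants dorsally and 5.84-fold higher medially. On the log2 scale of TPM + 1 the changes were 2.86 ± 0.19 dorsally and 2.15 ± 0.20 medially (SE from limma), which rank 11 and 30 from the top among 13520 tested genes. Mutant medial and mutant dorsal means were 15.1 ± 4.14 and 15.6 ± 4.05 TPM (SD, n = 4 each), while control medial cortex stood at 2.58 ± 0.770 TPM (n = 5) and control dorsal cortex at 1.26 ± 0.194 TPM (n = 6).

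Spon1 encodes F-spondin, a matrix protein best known from the floor plate of the spinal cord, where it acts on growing axons. Its mutant medial libraries had 6.51, 4.06, 7.53 and 5.13 TPM, against 0.935, 0.656, 0.974, 1.45 and 0.973 TPM in control medial libraries. Its mutant dorsal libraries had 2.44, 1.96, 3.29 and 2.79 TPM, against 0.749, 0.962 and 1.48 TPM (lowest, median and highest of 6) in control dorsal libraries. No mutant library overlapped a control library. Spon1 reached 1 TPM in all mutant libraries, but in 2 of 6 control dorsal and 1 of 5 control medial libraries. It thus passed the filter on low values (at least 1 TPM in at least 4 libraries) only with the mutants, where it is high. The log2 change was 1.75 ± 0.15 medially and 0.85 ± 0.15 dorsally, so that the medial change was larger by 0.90 ± 0.21 (0.89 ± 0.14 with the embryo as a block). Control cortex had the same mean level in both regions, 0.998 ± 0.286 TPM medially and 1.00 ± 0.268 TPM dorsally (SD, n = 5 and 6). The regional difference of Spon1 lay in the mutants, with 5.81 ± 1.52 TPM medially and 2.62 ± 0.563 TPM dorsally (SD, n = 4 each).

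Cemip was lower in the mutants of both regions by about the same step. Its product, also called KIAA1199 or HYBID, binds hyaluronan and is needed for its breakdown into shorter chains. Mutant medial libraries had 2.22, 0.940, 0.682 and 2.13 TPM, against 7.93, 6.07, 6.72, 6.95 and 7.96 TPM in control medial libraries. Mutant dorsal libraries had 1.23, 1.29, 1.10 and 1.61 TPM, against 5.06, 6.35 and 7.59 TPM (lowest, median and highest) in control dorsal libraries. All mutant libraries lay below all control libraries, and the regions overlapped within each genotype. The log2 changes were -1.76 ± 0.16 medially and -1.67 ± 0.16 dorsally, and they differed by -0.09 ± 0.23. Its coefficient of variation was 11.4% in control medial libraries, where of the 9 genes Adamts9 alone had a lower one, and 14.1% in control dorsal libraries, the lowest of the 9.

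Loxl1 and Bcan were medial genes that were lower in the mutants of both regions. Loxl1 encodes a lysyl oxidase that cross-links elastin. It had 0.962, 0.318, 1.75 and 1.17 TPM in mutant dorsal libraries, against 4.48, 9.41 and 10.8 TPM (lowest, median and highest) in control dorsal libraries, with no overlap. In medial cortex it had 44.0, 9.13, 15.7 and 14.3 TPM in mutant libraries, against 91.8, 75.3, 45.7, 27.8 and 66.0 TPM in control libraries. There the groups overlapped, because mutant library 1 lay above control library 5. The log2 change was -2.17 ± 0.38 dorsally and -1.64 ± 0.39 medially (-2.07 ± 0.34 without mutant medial library 1). Medial cortex was higher than dorsal cortex 19.8-fold in mutants and 7.39-fold in controls by the group means (12.4-fold in mutants without mutant medial library 1), without overlap in either genotype. The fold in mutants rests on a low dorsal mean of 1.05 TPM. On the log2 scale the regional difference was larger in mutants by 0.51 ± 0.40 with the embryo as a block. It was larger by 0.56 ± 0.55 with embryo sex in the model, and by 0.11 to 0.82 without 1 library at a time.

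Bcan encodes brevican, a chondroitin sulphate proteoglycan of the brain that binds hyaluronan. It was the most abundant of the 9 genes in control medial cortex. It had 24.4, 25.0, 47.9 and 19.9 TPM in mutant medial libraries, against 114, 93.7, 84.6, 54.1 and 87.6 TPM in control medial libraries, and these groups did not overlap. Mutant dorsal libraries had 3.51, 2.52, 11.5 and 2.53 TPM, against 6.60, 14.52 and 25.8 TPM (lowest, median and highest) in control dorsal libraries. Mutant dorsal library 3 was the one that overlapped the controls. The log2 changes were alike, -1.58 ± 0.38 medially and -1.55 ± 0.37 dorsally (-1.98 without mutant dorsal library 3), and so were the regional differences, 2.48 ± 0.40 in mutants and 2.50 ± 0.34 in controls. The median TPM of Bcan across the 4 groups therefore kept one order, with control medial above mutant medial, then control dorsal, then mutant dorsal cortex.

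Mutant dorsal library 3 was the highest of its group for 8 of the 9 genes, Cemip being the exception. The share of all tested genes that were highest in this library is not given here, so nothing is read from this count. The same library had the lowest sum of 8 neuronal markers of all mutant dorsal libraries, 2277 TPM against 2954 to 3448 TPM in the other 3. Among other lists, its sums were also the lowest of its group for cortical tissue (1812 TPM), pericyte (49.4 TPM), endothelial (80.4 TPM) and erythroid markers (3425 TPM). They were the highest of its group for radial glia (2737 TPM, beside 2716 TPM in library 1), oligodendrocyte precursor (26.4 TPM) and microglia markers (45.3 TPM). Its sum of choroid plexus markers was the highest (24.6 TPM, beside 24.1 TPM in library 2). The part of these markers in these levels was not tested.

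Htra1, Adamts9 and Adamts19 are proteases whose difference between genotypes was larger medially. Htra1 encodes a secreted serine protease that cuts matrix proteins and growth factor regulators. It had 15.8, 1.21, 2.20 and 1.30 TPM in mutant medial libraries, against 73.2, 67.8, 21.9, 7.92 and 42.0 TPM in control medial libraries. In dorsal cortex it had 0.763, 0.491, 0.910 and 0.816 TPM in mutant libraries, against 0.896, 1.34 and 1.53 TPM (lowest, median and highest) in control libraries. The genotypes overlapped in both regions, medially because mutant library 1 exceeded control library 5. The log2 change was -3.06 ± 0.57 medially, the lowest value among all 13520 tested genes, and -0.39 ± 0.55 dorsally. Its dorsal value was -0.06 ± 0.59 with embryo sex in the model, -0.72 ± 0.62 with a pseudocount of 0.1, and -0.39 ± 0.11, past the threshold, when the dorsal libraries were fitted alone. Htra1 also had the largest medial to dorsal difference of all tested genes in control cortex (3.90 ± 0.51 on the log2 scale, 33.1-fold by the means). In mutants that difference was 1.22 ± 0.60, and 0.54 ± 0.49 without mutant medial library 1. Levels in control medial libraries spanned a 9.25-fold range, and no mutant dorsal library reached 1 TPM.

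Adamts9 encodes a metalloprotease that cuts large proteoglycans such as versican. Its mutant medial libraries had 3.13, 2.69, 4.63 and 3.51 TPM, against 9.97, 10.1, 8.32, 8.52 and 8.36 TPM in control medial libraries, without overlap. Its mutant dorsal libraries had 1.64, 1.12, 2.29 and 1.27 TPM, against 2.02, 2.55 and 3.04 TPM (lowest, median and highest) in control dorsal libraries, where mutant library 3 overlapped the controls. The log2 change was -1.18 ± 0.14 medially and -0.46 ± 0.13 dorsally, a difference of -0.72 ± 0.19 between regions (-0.74 ± 0.12 with the embryo as a block). In contrast to Htra1 and Loxl1, its control medial libraries lay close together, with a coefficient of variation of 9.94%.

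Adamts19 (chromosome 18, 58836667 to 59054060) encodes a related metalloprotease. It was a medial gene: it had 2.14, 0.443, 1.82 and 1.03 TPM in mutant medial libraries, against 10.01, 8.05, 3.74, 3.31 and 4.79 TPM in control medial libraries, without overlap. In dorsal cortex it had 0.0362, 0, 0.485 and 0.126 TPM in mutant libraries, against 0.0808, 0.142 and 0.257 TPM (lowest, median and highest) in control libraries. It passed the filter on low values (at least 1 TPM in at least 4 libraries) through its 8 medial libraries at or above 1 TPM alone, so it had to differ between regions. The log2 change was -1.53 ± 0.25 medially and -0.01 ± 0.24 dorsally, where both groups were near the bottom of the scale. Medial control cortex exceeded dorsal control cortex by 2.50 ± 0.23 on the log2 scale, rank 9 from the top among all tested genes.

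Fbln7 encodes a fibulin, a secreted glycoprotein that binds cells and matrix. It differed between regions and hardly between genotypes. Mutant medial libraries had 8.18, 3.64, 8.35 and 3.85 TPM, against 8.31, 7.02, 5.34, 4.23 and 6.78 TPM in control medial libraries. Mutant dorsal libraries had 0.995, 0.438, 1.14 and 0.516 TPM, against 0.644, 1.20 and 1.71 TPM (lowest, median and highest) in control dorsal libraries. The genotypes overlapped in both regions, with log2 changes of -0.12 ± 0.23 medially and -0.28 ± 0.22 dorsally, while the regions did not overlap in either genotype. The medial to dorsal difference was 1.92 ± 0.24 in mutants and 1.76 ± 0.20 in controls.

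**Figure D2:**
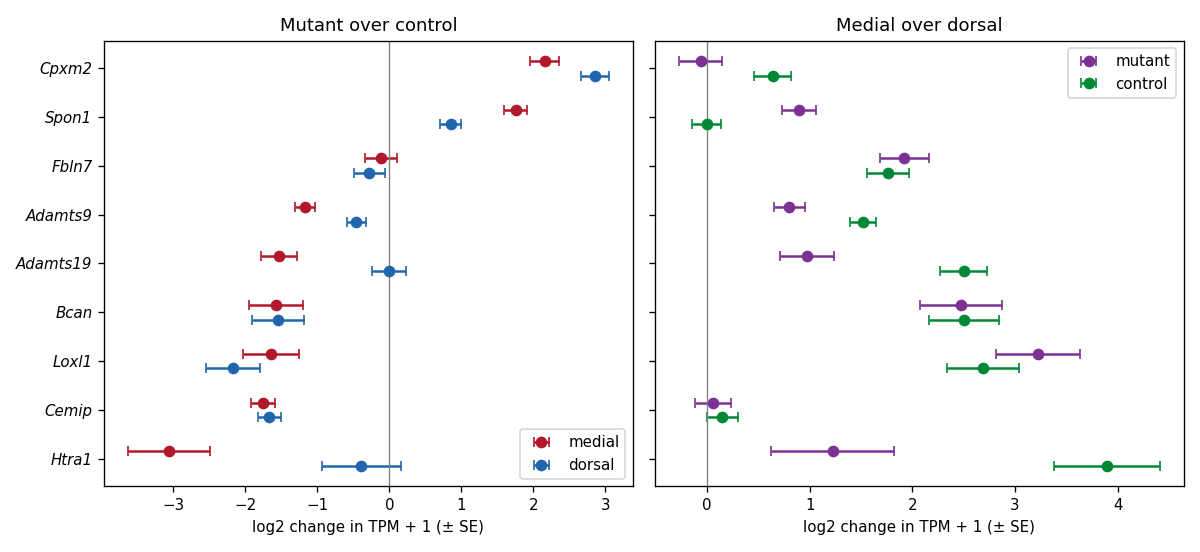
Log2 change in TPM + 1 with its SE (limma) for the 9 genes, on the left mutant over control in medial and dorsal cortex, on the right medial over dorsal in mutant and control cortex. Cpxm2 and Spon1 lie right of 0 in the genotype panel; in medial mutants Htra1 (-3.06) and Adamts19 (-1.53) lie further from 0 than in dorsal mutants (-0.39 and -0.01).

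Counted together, 8 of the 9 genes were past an adjusted p of 0.05 in limma between mutant and control medial cortex (2 higher, 6 lower), where 39.6% of all 13520 tested genes were, and 6 of 9 in dorsal cortex (2 higher, 4 lower; 5 after quantile normalization and 7 when the dorsal libraries were fitted alone), where 37.5% were. By direction, 9.44% of all genes were higher and 30.2% lower medially, and 9.93% higher and 27.6% lower dorsally. Libraries did not overlap for 6 of the 9 genes medially (2 higher, 4 lower; 30.4% of all genes, 7.63% higher and 22.7% lower) and for 4 of 9 dorsally (2 higher, 2 lower; 24.8% of all genes, 7.25% higher and 17.6% lower). Between regions, 6 were past the threshold in mutants (18.8% of all genes, 8.03% higher and 10.8% lower) and 7 in controls (32.4%, 17.6% higher and 14.9% lower), all higher medially. The 6 in mutants became 0 when the 8 mutant libraries were fitted alone. Medial and dorsal libraries did not overlap for 6 genes in mutants (15.2% of all genes, 7.11% higher and 8.05% lower) and for 6 in controls (20.5%, 11.1% higher and 9.39% lower), all higher medially. For the difference between the medial and the dorsal genotype effect, 0 of the 9 passed in limma and 0.0074% of all genes did (1 gene, higher; 451 at an unadjusted p under 0.05), while 3 of the 9 (Adamts9, Adamts19 and Spon1) and 49 genes passed with the embryo as a block with estimated correlation, and 2 of the 9 (Adamts9 and Spon1) and 16 genes with a fixed block. Since the genes were picked for such shifts, nothing is read from these shares. The median log2 change of the 9 genes was -1.53 medially and -0.39 dorsally, beside -0.11 and -0.10 over all tested genes.

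Of the 9 genes, 6 are rich in medial cortex, and markers of the cortical hem differed strongly among the medial libraries. The summed level of 8 hem markers (Wnt2b, Wnt3a, Wnt5a, Rspo1, Rspo2, Rspo3, Lmx1a and Bmp4, none at 0 throughout a group) was 138, 33.4, 28.4 and 37.7 TPM in mutant medial libraries 1 to 4, against 167, 143, 67.6, 52.8 and 91.9 TPM in control medial libraries 2 to 6. The dorsal sums were 36.7 to 46.0 TPM in mutants and 67.3 to 75.6 TPM in controls, and nearly all of that was Rspo3 (35.1 to 43.8 TPM in mutants and 63.8 to 72.9 TPM in controls), so the sum does not single out hem there. The other 7 markers, summed without Rspo3 after the values were seen, had 66.9, 2.66, 5.88 and 4.19 TPM in mutant medial libraries 1 to 4, against 86.8, 68.8, 14.1, 6.87 and 29.8 TPM in control medial libraries 2 to 6. Dorsally they had 1.61 to 2.64 TPM in mutants and 2.65 to 4.25 TPM in controls. Mutant medial library 1 was the highest of its group for 8 of the 8 markers, and control medial library 5 the lowest of its group for 7 of 8. Wnt3a, a defining Wnt gene of the hem, had 7.83, 0.0468, 0.0318 and 0 TPM in mutant medial libraries 1 to 4, against 8.76, 7.77, 0.206, 0.0430 and 2.43 TPM in control medial libraries 2 to 6.

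Htra1, Loxl1, Bcan, Adamts19 and Fbln7 ranked the 5 control medial libraries in exactly the order of the hem marker sum, with or without Rspo3, and Cemip, Adamts9, Cpxm2 and Spon1 did not. The share of all tested genes with that order is not given here, so nothing is read from this count. The 5 genes also varied together over the 19 libraries (Pearson's r from 0.788 to 0.954), so they are not 5 separate observations. Among mutant medial libraries, Htra1, Loxl1, Adamts19 and Cemip were highest in library 1, the one rich in hem markers. For Cemip the lead was small (2.22 TPM, beside 2.13 TPM in library 4). Bcan, Adamts9, Spon1 and Fbln7 were highest in library 3, and Cpxm2 in library 2. Library 3 had the lowest hem sum of its group (28.4 TPM, and 5.88 TPM without Rspo3). Bcan had 47.9 TPM there. At a hem sum of 138 TPM mutant medial library 1 had 15.8 TPM of Htra1, against 67.8 TPM in control medial library 3 at a sum of 143 TPM. For Bcan the same libraries had 24.4 and 93.7 TPM, and for Adamts19 2.14 and 8.05 TPM. Loxl1 had 44.0 and 75.3 TPM in them, while Fbln7 was slightly higher in the mutant library, with 8.18 and 7.02 TPM. Without mutant medial library 1 the medial log2 change of Htra1 was -3.74 ± 0.47, that of Adamts19 -1.69 ± 0.26 and that of Bcan -1.52 ± 0.43. The comparison at a like sum sets 1 mutant library beside 1 control library. Rspo3, which is in the sum, was itself lower in mutant than in control dorsal libraries. A like sum therefore need not mean a like amount of hem. The part of hem tissue in the medial levels and in the differences between genotypes was not tested.

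**Figure D3:**
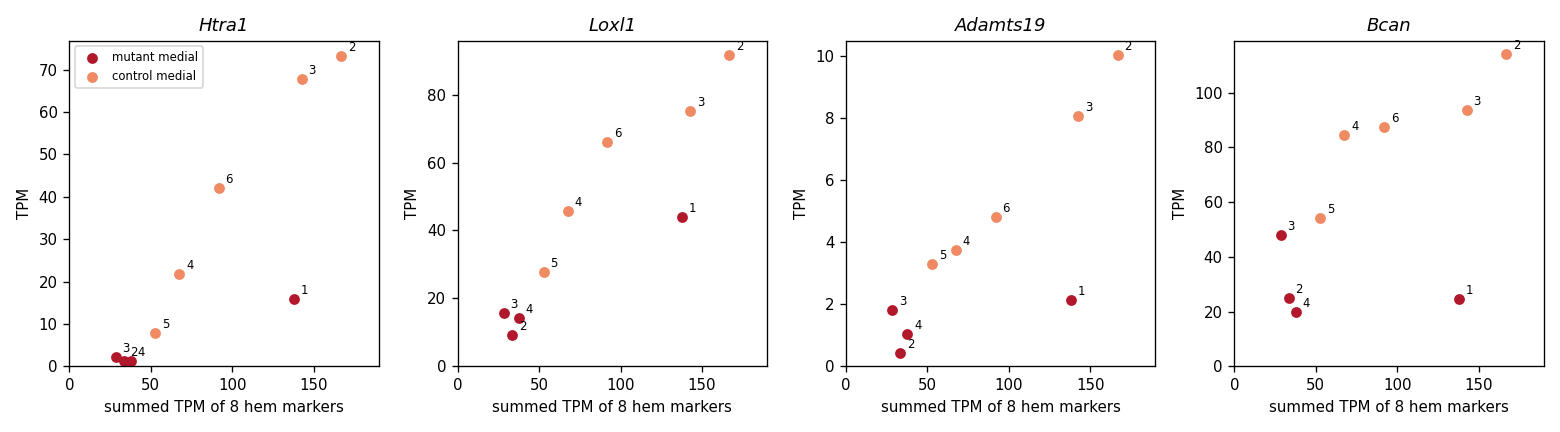
TPM of 4 of the genes (vertical axis) against the summed TPM of 8 cortical hem markers (horizontal axis) in the 4 mutant and 5 control medial libraries, numbered as in the sample titles. Control libraries line up from 5 at the lowest to 2 at the highest sum in each panel. Mutant library 1 lies at a sum of 138 TPM, below control library 3 with a like sum (143 TPM). Fbln7, which has the same order of control libraries, is not drawn, and was slightly higher in mutant library 1 (8.18 TPM) than in control library 3 (7.02 TPM).

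Across all 19 libraries the 9 genes fell into patterns that can be given by Pearson's r of log2(TPM + 1), as a description over libraries that share genotype and region. Cpxm2 and Spon1 went together (r = 0.815), and Cemip mirrored them (r = -0.929 with Cpxm2 and -0.830 with Spon1). Among the 6 medial genes r ran from 0.788 for Htra1 and Fbln7 to 0.954 for Htra1 and Adamts19. The genes outside the 9 with the most similar patterns were Synm (r = 0.977) and Peg10 (0.972) for Cpxm2, Sox1 (0.959) and Sv2c (0.935) for Spon1, and Nkain2 (0.982) and the protocadherin gene Pcdh7 (0.979) for Cemip. They were Vwa5a (0.972) and the Wnt receptor gene Fzd9 (0.968) for Loxl1, Pld2 (0.972) and Tpbg (0.967) for Htra1, and Pgpep1 (0.974) and the Notch-responsive gene Nrarp (0.960) for Bcan. Pgpep1 (0.973) and Nedd9 (0.973) were nearest to Adamts9, the proprotein convertase gene Pcsk6 (0.978) and Eya1 (0.977) to Adamts19, and Mycn (0.971) and Tril (0.968) to Fbln7.

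Other matrix genes were examined as 10 families, which hold 121 genes besides the 9 in the table, of which 69 passed the filter. Most families hold relatives of the 9 genes. The matrix metalloproteases with their inhibitors (13 tested genes) and the plasminogen system (5 tested genes) hold 0 of the 9. These lists gave 0 rises in either region, and 5 and 1 of the falls medially and 7 and 0 dorsally. In mutant medial cortex 4 of the 69 rose and 23 fell (5.80% and 33.3%), beside 9.44% and 30.2% of all tested genes (limma, adjusted p over all genes). In mutant dorsal cortex 6 rose and 21 fell (8.70% and 30.4%), beside 9.93% and 27.6%. After median-ratio rescaling 5 rose and 21 fell medially (7.25% and 30.4%), beside 15.8% and 17.3% of all genes, and 8 rose and 16 fell dorsally (11.6% and 23.2%), beside 15.4% and 14.8%. The median log2 change of the 69 was -0.22 medially and -0.12 dorsally. The share that fell was thus near that of all genes in the TPM as deposited and above it after rescaling, and whether the families differ from other genes was not tested.

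Of the 14 other ADAMTS genes tested, 1 rose and 5 fell medially and 2 rose and 4 fell dorsally. Adamts20, a protease gene of the same subgroup as Adamts9, went the other way: it had 12.6 ± 3.29 TPM in mutant medial and 2.71 ± 0.137 TPM in control medial libraries (SD, n = 4 and 5), a log2 change of 1.84 ± 0.15 (limma adjusted p = 1.02e-07), and rose by 1.61 ± 0.15 dorsally (adjusted p = 1.73e-07). Adamts6 fell by 0.82 ± 0.09 medially and 0.70 ± 0.09 dorsally (limma adjusted p = 3e-06 and 9.17e-06). Adamts4, whose product cuts brevican and other lecticans, fell by 0.73 ± 0.14 and 0.68 ± 0.13 (limma adjusted p = 0.000472 and 0.000649).

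Of 7 other hyaluronan genes, 2 rose and 2 fell in each region. Of those that fell, Hyal2, a hyaluronidase gene, did not pass after median-ratio rescaling (limma adjusted p = 0.0604 dorsally and 0.2 medially) or quantile normalization (0.06 and 0.204). Tmem2 (also called Cemip2), which encodes a cell-surface relative of Cemip, rose by 0.28 ± 0.07 medially and 0.46 ± 0.07 dorsally (limma adjusted p = 0.00333 and 3.84e-05), opposite to Cemip. The hyaluronan synthase gene Has3 fell by 0.73 ± 0.16 and 0.67 ± 0.16 (limma adjusted p = 0.00182 and 0.0029). Hmmr, a hyaluronan receptor gene whose product also works at the mitotic spindle, rose by 0.57 ± 0.09 and 0.85 ± 0.09 (limma adjusted p = 0.000152 and 1.24e-06). Among 5 other lectican, link protein and tenascin genes, 2 fell in each region. Ncan, the gene of neurocan, had 166 ± 18.9 TPM in mutant medial and 244 ± 24.2 TPM in control medial libraries and fell by 0.56 ± 0.08 there and by 0.47 ± 0.07 dorsally (limma adjusted p = 3.07e-05 and 0.000102).

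Of 12 other elastic fibre genes tested, 0 rose and 6 fell medially (9.44% and 30.2% of all genes) and 1 rose and 4 fell dorsally (9.93% and 27.6%). After median-ratio rescaling 1 rose and 6 fell medially and 1 rose and 3 fell dorsally. Eln, the gene of elastin and so of the substrate of Loxl1, fell by 0.94 ± 0.12 medially and 0.79 ± 0.12 dorsally (limma adjusted p = 1.71e-05 and 6.34e-05). Mfap2, a microfibril gene, fell by 0.80 ± 0.08 and 0.63 ± 0.08 (limma adjusted p = 1.64e-06 and 1.13e-05). The other lysyl oxidase genes that passed the filter, Loxl2 and Loxl3, had medial log2 changes of -0.13 ± 0.10 and 0.08 ± 0.10 (limma adjusted p = 0.317 and 0.559) and did not pass in either region. The HTRA genes Htra2 and Htra3 did not pass either (limma adjusted p = 0.0708 and 0.0574 dorsally). Htra2 passed as higher dorsally after median-ratio rescaling (limma adjusted p = 0.0067), after quantile normalization (0.00875, and 0.0412 medially) and with embryo sex (0.0366). Htra3 passed as lower dorsally without control dorsal library 2 (limma adjusted p = 0.0356), mutant dorsal library 2 (0.0297) or mutant medial library 2 (0.0498).

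Of the 4 other carboxypeptidase genes tested, Cpxm1, the closest relative of Cpxm2, was the one that passed. It rose by 0.55 ± 0.09 dorsally (limma adjusted p = 0.000129) and by 0.29 ± 0.09 medially (0.0185; 0.0524 without control medial library 2, 0.0505 without mutant medial library 2 and 0.085 with embryo sex). In medial cortex Cpd passed as higher after quantile normalization (limma adjusted p = 0.0371), and Cpe as lower with title number as a block (0.046). Of 5 other spondin, R-spondin and thrombospondin genes, 0 rose and 2 fell in each region, Thbs1 and Rspo3. Thbs1 did not pass dorsally after median-ratio rescaling (limma adjusted p = 0.146, against 0.0293 as deposited), among other settings, nor in medial cortex after quantile normalization (0.0663). Rspo3 did not pass medially with embryo sex (limma adjusted p = 0.053) or when the medial libraries were fitted alone (0.0773). Of 5 plasminogen system genes, 0 rose and 1 fell medially and none passed dorsally. That gene, Serpini1 (limma adjusted p = 0.0298), did not pass after either rescaling (0.0936 and 0.0704) or without control medial library 4, 5 or 6 or mutant medial library 1 or 3 (0.0571 to 0.103), and passed dorsally without mutant dorsal library 4 (0.0458). Serpine2 passed as lower medially without mutant medial library 1 (-0.73, limma adjusted p = 0.0108, against 0.344 with all libraries). Of 13 matrix metalloprotease and inhibitor genes, 0 rose and 5 fell medially and 0 rose and 7 fell dorsally. Mmp24, a membrane-bound protease gene of neural tissue, fell by 1.25 ± 0.14 and 0.91 ± 0.13 (limma adjusted p = 2.83e-06 and 4.97e-05), and the inhibitor gene Timp2 fell by 0.54 ± 0.09 and 0.36 ± 0.09 (limma adjusted p = 0.000159 and 0.00303).

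Between medial and dorsal cortex, 9 of the 69 family genes were higher and 14 lower medially in mutants (8.03% and 10.8% of all genes), and 22 were higher and 13 lower in controls (17.6% and 14.9% of all genes). With the embryo as a block, 17 were higher and 17 lower in mutants (18.4% and 20.7% of all genes), and 25 higher and 17 lower in controls (26.5% and 22.4%). Without 1 library at a time the mutant counts ran from 5 to 12 higher and from 8 to 14 lower. Elastic fibre genes had 4 of 12 higher medially in mutants and 7 of 12 in controls, with none lower in either genotype.

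**Figure D4:**
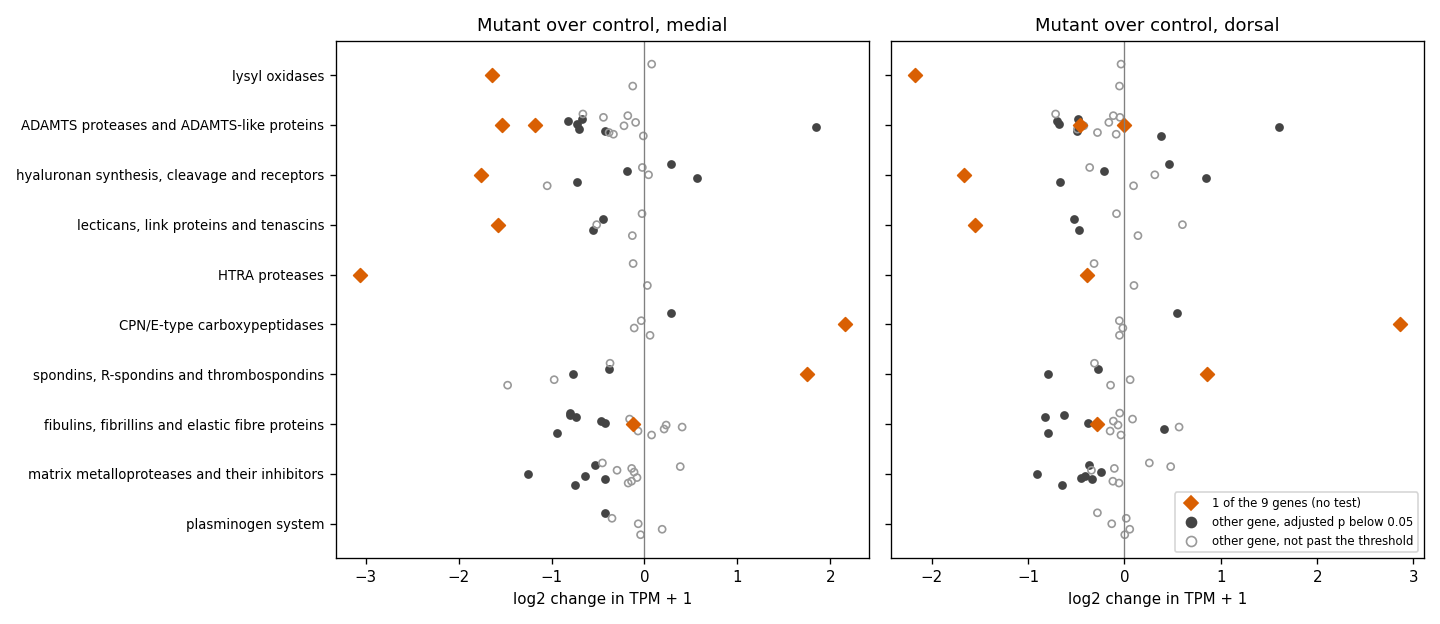
Log2 change of mutant over control (horizontal axis, TPM + 1) in medial and dorsal cortex for the tested genes of 10 matrix families, 1 point per gene. Diamonds are the 9 genes, filled circles other genes with adjusted p below 0.05 in limma and open circles the rest; Adamts20 is the filled circle at 1.84 medially and 1.61 dorsally.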

How the data were processed

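RNA was taken from dissected E14.5 cortex with a column kit for small samples and made into stranded total RNA libraries, per the labels. The authors deposited TPM per gene symbol (build mm10, per the submitters' processing notes). How reads were aligned, quantified and assigned to strands is not given in the sources used here. TPM keeps no depth, so no counting error is given. Groups follow the sample titles. Nothing in the labels states that a group's libraries come from different embryos; p-values therefore reflect library-to-library spread, part of which may be technical.

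The 13520 genes reaching 1 TPM in 4 or more of 19 libraries were fitted on log2(TPM + 1) in limma 3.58.1 (R 4.3.3) with 1 mean per group, trend and robust settings, and Benjamini-Hochberg adjustment within each comparison (threshold 0.05). A fold on this scale understates the change of low genes. The fit was also run on simulated data, with noise drawn separately for each library. In the real data the estimated correlation within embryos was 0.515, so that run cannot show how such pairing affects the fit. The members, lists and tests were chosen with earlier results of these data known. The design foresaw a test of the 9 genes between regions; since their values show that they were picked on regional differences too, these are given as descriptions. Named family genes are up to 4 per list by adjusted p in either genotype comparison. Whether title numbers mark embryos was checked on deviations from the group means: for all 9 pairs of a medial with a dorsal library sharing genotype and number, r was 0.549 to 0.795, while for the 7 pairs across genotypes in 1 region it was -0.436 to 0.138. The pairing of regions thus comes from the data. Alternatives were another pseudocount (0.1), no filter, median-ratio and quantile scaling, embryo blocks, embryo sex, a fit of only the groups compared and leaving out each library. Positions are from GENCODE M21 (GRCm38) and promoters from RefSeq. Figures were drawn with matplotlib 3.10.9 in Python 3.11.15.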

Additional observations from a re-analysis of the deposited data

Results flagged for a closer look

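Among 36 combinations of gene and group, 2 held a library that stood apart from the rest of its group; chance gives about 1 in 20 such groups. Htra1 had 15.8 TPM in mutant medial library 1, against 1.21 to 2.20 TPM in the other mutant medial libraries. Library 1 was also the mutant medial library with the highest level of all 8 cortical hem markers, and their part in the Htra1 value was not tested. Bcan had 11.5 TPM in mutant dorsal library 3, against 2.52 to 3.51 TPM in the other mutant dorsal libraries. Library 3 had the lowest neuronal (2277 TPM) and cortical tissue (1812 TPM) marker sums of its group, among other differences in marker sums. Their part in the Bcan value was not tested.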

How the results depend on the processing

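The log2 changes of the 9 genes were recomputed under each alternative, and none that had passed the threshold reversed sign. Of the recomputed values, 1185 moved by less than the SD between replicates and 21 by more. Of the 21, 19 came with a pseudocount of 0.1 and the other 2 for Htra1 in dorsal cortex (title number as a block, and embryo sex). Many of the 1185 could not move. Dropping the filter, fitting only the groups compared or leaving out a library of another group keeps a log2 change as it was. The 1185 is therefore no measure of how stable the values are. Counts of genes called between mutant and control stayed within 1.5 times, from 4077 to 5218 dorsally and from 4439 to 5394 medially over the alternatives that kept all libraries. Without 1 library they ran from 3865 to 5178 and from 4577 to 5496. Called genes were 1343 higher and 3727 lower dorsally and 1276 and 4081 medially as deposited, against 2079 and 1998, and 2138 and 2341, after median-ratio rescaling, and 1959 and 2173, and 2164 and 2275, after quantile normalization. The numbers pair regions, not genotypes. Between regions in control cortex 4387 genes were called, 6614 with the embryo as a replicate block with estimated correlation, and from 3374 to 4552 without 1 library. In mutant cortex 2545 were called, 5283 with that block and 4950 with a fixed embryo block. A limma fit of the 8 mutant libraries alone called 0 genes (3643 at an unadjusted p under 0.05), and so 0 of the 9 in place of 6. Without 1 library the mutant count ran from 1138 (without mutant dorsal library 2) to 3678, with 1372 without mutant dorsal library 4 and 1305 without mutant medial library 3. Of the 9 genes, 7 were called in control cortex in every fit without 1 library, and from 5 to 6 in mutants, where Adamts19 was lost without mutant dorsal library 2 or mutant medial library 1 or 3. The difference between the regional genotype effects called 1 gene, 49 with the estimated embryo block, among them Adamts9, Adamts19 and Spon1, and 16 with the fixed block, among them Adamts9 and Spon1. The cause of these changes was not tested. The 9 genes were picked for such shifts, so the counts of their calls are descriptions and no test of them. Adamts19 passed the filter through its medial libraries alone, and Spon1 only with the mutants. The block by title number did not change another call of the 9 genes between genotypes. Depth is unknown, so genes near 0, such as dorsal Adamts19 and Htra1, carry an error that cannot be given.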

Other observations

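The genes that lie beside the 9 were examined as well, taking the 5 tested genes on each side of each one (90 places, with neighbours shared by Htra1 and Cpxm2 counted for both). Of these, 34 passed between mutant and control medial cortex (37.8%, beside 39.6% of all genes) and 35 in dorsal cortex (38.9%, beside 37.5%), which is close to the share of all genes. Near Loxl1, 6 of 10 neighbours fell in each region and 0 rose, among them the netrin receptor gene Neo1 (-0.42 ± 0.08 medially) and Islr2 (-0.87 ± 0.08). Of all genes, 30.2% fell medially and 27.6% dorsally. Loxl1 is named as the highest of the 9 after the values were seen. Near each of the others from 1 to 4 of 10 fell in a region, and nothing is read from this count. Between Htra1 and Cpxm2, Bub3, a spindle checkpoint gene, rose by 0.27 ± 0.03 medially and 0.30 ± 0.03 dorsally, while Acadsb fell by 0.43 ± 0.07 and 0.35 ± 0.07 (limma, each with adjusted p below 0.05).

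Medial and dorsal libraries of the same embryo number deviated from their group means in the same direction in 8 of 9 embryos for Bcan and in 1 of 9 for Cpxm2, beside a mean of 6.07 of 9 over all tested genes.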
